A study of Mus musculus with 12 samples.

Results

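The 38 genes described here encode the digestive enzymes, nutrient carriers, sugar-handling enzymes and structural proteins of the intestinal brush border. They were chosen by name from known function out of 39086 genes in the count table, on condition of enough counts to be measured. Earlier results of these data were known when they were chosen. All 38 passed the filter on low counts that left 17087 genes for testing. They fell into 6 groups by role: 4 saccharidases, 9 membrane peptidases and phosphatases, 10 amino acid and peptide carriers, 3 sugar carriers, 4 enzymes of fructose and glucose metabolism, and 8 proteins of the microvillus.

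The brush border is the carpet of microvilli on the luminal face of the absorptive enterocyte, the main cell of the villus. Disaccharidases and peptidases anchored in this membrane carry out the last step of digestion, and carriers beside them bring the released sugars, amino acids and small peptides into the cell. Microvilli are held up by actin bundles and by a complex of cadherins, myosins and scaffold proteins at their tips. These genes are known for high expression in mature villus enterocytes, while hormone cells are known for granule and peptide hormone genes.

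All mice were male C57BL/6N of genotype Neurog3eYFP/+ and 12 weeks old, and RNA was taken from villi of the jejunum. Mice of every group thus carried 1 reporter allele at Neurog3, the gene that starts endocrine differentiation in the gut. The mice ate a normal diet (ND, Safe D04) throughout, or were switched at 8 weeks of age to a high fat diet (HFD, D12492) for 4 weeks. Villi were enriched with EDTA and dissociated with dispase, and the sort by eYFP parted positive cells (labelled enteroendocrine cells, EEC) from negative ones (labelled non-EEC), which gave 4 groups of 3 libraries. Each diet has 3 mice in the labels, and whether an EEC and a non-EEC library came from 1 animal is not stated, so p-values measure only the spread between these libraries. The eYFP-negative sort takes every villus cell without reporter signal, so it is no pure enterocyte sample, and no mouse without the reporter allele was analysed here.

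Total counts per library ran from 9543183 to 29054281, and the 38 genes took 0.282% to 4.57% of them. Levels are in CPM, counts scaled to a common library size with TMM factors. All 8 endocrine markers were called higher in EEC under edgeR's quasi-likelihood test over both diets, as the labels have it. Among the non-EEC libraries, ND replicate 1 stood apart from ND replicates 2 and 3. Its geometric mean over the 38 genes was 188 CPM against 39.4 and 26.4 CPM, and its summed goblet cell markers stood at 36037 CPM against 2678 and 725 CPM. T cell markers (8 genes) summed to 3676, 6621 and 9224 CPM in ND non-EEC replicates 1 to 3, and the 8 enterocyte markers to 11512, 2380.0 and 3329.9 CPM, so that in replicates 2 and 3 the T cell sum was the larger. In HFD non-EEC the T cell markers summed to 289, 45.6 and 349 CPM and the enterocyte markers to 33823, 78532 and 74243 CPM. The endocrine markers summed to 2440.4, 259 and 77.8 CPM in ND non-EEC and to at least 11863 CPM in the 6 EEC libraries. These values are taken up again beside the results they move with.

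Per kilobase of exon (CPM per kb), the scale on which levels of different genes can be compared, the aminopeptidase gene Anpep, the sucrase-isomaltase gene Sis and the microvillus cadherin gene Cdhr5 held the first 3 places in every group. Anpep had 570.2 CPM per kb in ND non-EEC, 2444 in HFD non-EEC, 632 in ND EEC, with 482 in HFD EEC. Sis had 205, 979.9, 519 and 488 CPM per kb in the same order of groups, and led in HFD EEC. The actin bundler gene Espn was among the last 3 with 1.83, 5.25, 1.82 and 3.31 CPM per kb. The glutamate carrier gene Slc1a1, the gluconeogenic genes Fbp1 and G6pc and the sugar carrier gene Slc5a9 stood near the bottom in all 4 groups.

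**Figure D1:**
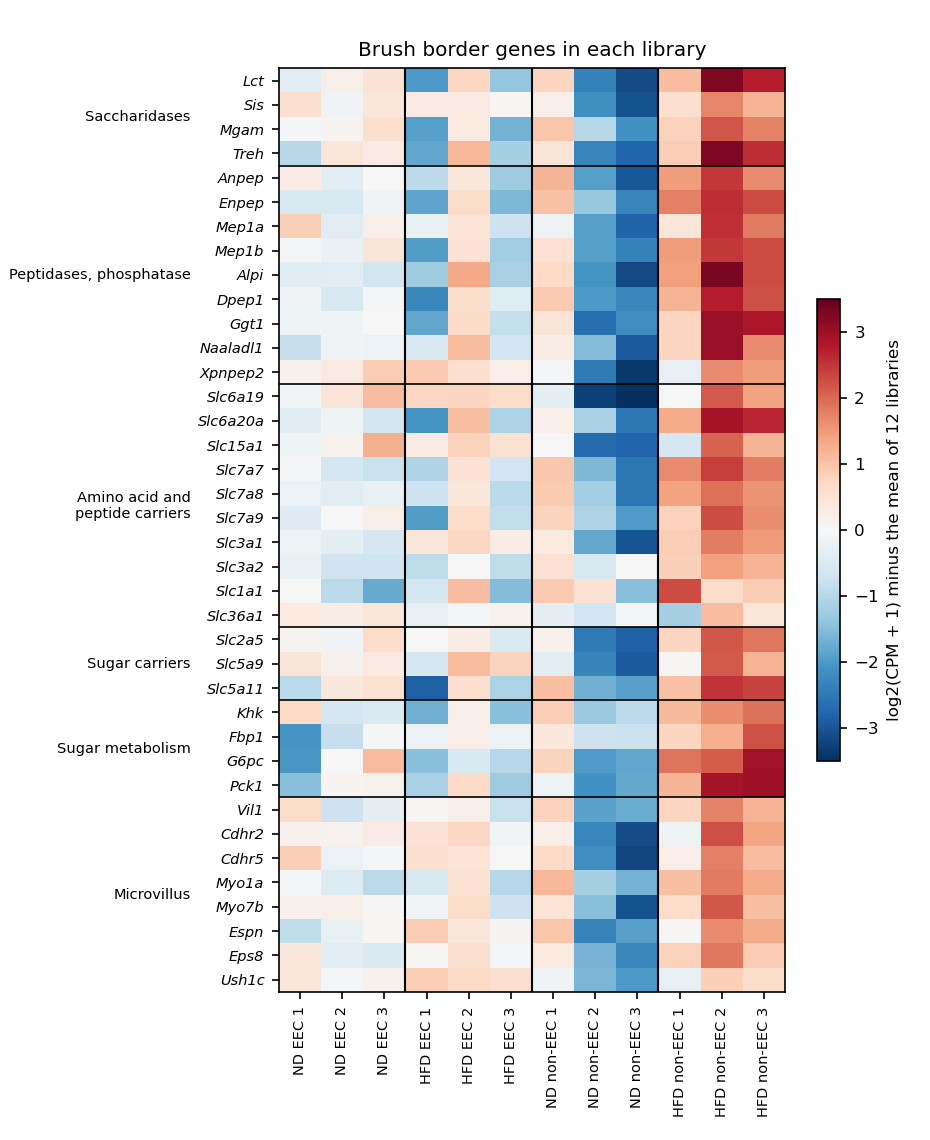
Each row is 1 of the 38 brush border genes, grouped by role, and each column 1 of the 12 libraries; colour gives log2(CPM + 1) minus the gene's mean over the libraries. The HFD non-EEC libraries are above the mean in nearly every row and ND non-EEC replicates 2 and 3 below it, while ND non-EEC replicate 1 and the 6 EEC libraries mostly lie between them.

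The diet comparison within non-EEC asked whether a high fat diet changed the expression of these genes in villus cells outside the endocrine lineage. All 38 genes had a higher fitted mean under HFD, with a median log2 fold change of 2.33 against -0.10 over all genes tested. Of the 38, 20 rose at an adjusted p below 0.05 (edgeR's quasi-likelihood test, Benjamini-Hochberg over 17087 genes) and 0 fell, where 5.76% of all tested genes were called higher and 9.15% lower. In 26 of the 38 the 3 HFD libraries all lay above the 3 ND libraries, against 15.1% of all tested genes. Genes that rose were found in every role: 3 of 4 saccharidases, 6 of 9 peptidases and phosphatases, 3 of 10 amino acid and peptide carriers, 2 of 3 sugar carriers, 3 of 4 sugar-metabolism enzymes and 3 of 8 microvillus genes. In bulk RNA of this kind, fewer cells of a type and less RNA per cell cannot be told apart.

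The cell type markers moved in the same comparison. Enterocyte markers that are not among the 38 genes (Apoa1, Apoa4, Apob, Fabp1, Fabp2, Rbp2, Krt20 and Mttp) were called higher under HFD for 7 of 8, with a median log2 fold change of 3.38. All 8 T cell markers were called lower, with a median of -4.90, and Cd2 had no counts in HFD non-EEC replicates 1 and 2. B cell markers were called lower for 1 of 5, with sums of 102, 185 and 185 CPM under ND and 14.5, 1.65 and 28.2 CPM under HFD. The part of these markers in the rise of the brush border genes was not tested.

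**Figure D2:**
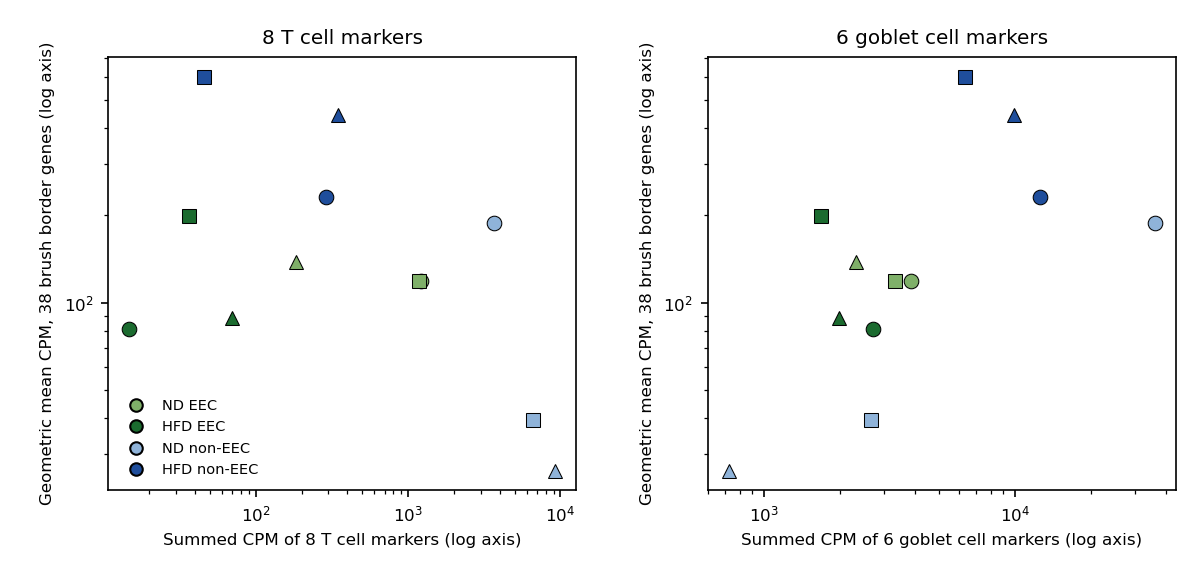
Each point is a library, with the geometric mean of the 38 brush border genes (CPM, log axis) set against summed marker CPM (log axis). The markers are those of T cells and of goblet cells. Colours mark the 4 groups and symbols the replicates. ND non-EEC replicates 2 and 3 have the lowest brush border means (39.4 and 26.4 CPM) and the highest T cell sums, and ND non-EEC replicate 1 has the highest goblet cell sum.

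The promoters of 6 of the genes that rose are shown, to set out which motif letters their start regions hold. Each is the stretch of 250 bases before the RefSeq start on GRCm38.p6, read on the gene's strand, and capitals mark matches to 5 short motifs named for intestinal transcription factors or the core promoter. The motifs were HNF4 (CAAAGTCCA), an HNF1 half-site (GTTAAT), CDX (TTTATNNC), the GATA factor motif, whose letters are AGATAA, and the TATA box (TATAAA). All were searched on both strands, and CDX, TATA and GATA matches can overlap.
Alpi (chr1:87101607-87101856, minus strand): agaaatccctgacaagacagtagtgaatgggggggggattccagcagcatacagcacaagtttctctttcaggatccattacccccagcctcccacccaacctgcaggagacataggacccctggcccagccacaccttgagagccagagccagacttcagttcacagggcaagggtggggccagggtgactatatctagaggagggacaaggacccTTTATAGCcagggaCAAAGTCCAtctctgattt
Slc3a1 (chr17:85028097-85028346, plus strand): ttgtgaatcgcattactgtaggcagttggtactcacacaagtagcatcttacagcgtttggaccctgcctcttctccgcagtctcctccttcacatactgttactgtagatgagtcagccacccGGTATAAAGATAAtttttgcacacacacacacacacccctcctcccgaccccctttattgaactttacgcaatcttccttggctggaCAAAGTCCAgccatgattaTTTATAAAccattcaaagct
Treh (chr9:44672983-44673232, plus strand): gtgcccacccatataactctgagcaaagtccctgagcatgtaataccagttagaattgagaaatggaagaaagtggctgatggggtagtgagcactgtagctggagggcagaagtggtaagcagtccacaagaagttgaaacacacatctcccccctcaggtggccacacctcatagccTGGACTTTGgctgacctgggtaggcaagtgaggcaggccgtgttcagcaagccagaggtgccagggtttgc
Sis (chr3:72967864-72968113, minus strand): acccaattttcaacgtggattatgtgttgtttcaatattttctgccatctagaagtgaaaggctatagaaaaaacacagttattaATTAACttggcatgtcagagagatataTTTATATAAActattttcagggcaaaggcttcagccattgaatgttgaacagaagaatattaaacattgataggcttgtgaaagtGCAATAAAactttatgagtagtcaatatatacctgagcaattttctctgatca
Lct (chr1:128328319-128328568, minus strand): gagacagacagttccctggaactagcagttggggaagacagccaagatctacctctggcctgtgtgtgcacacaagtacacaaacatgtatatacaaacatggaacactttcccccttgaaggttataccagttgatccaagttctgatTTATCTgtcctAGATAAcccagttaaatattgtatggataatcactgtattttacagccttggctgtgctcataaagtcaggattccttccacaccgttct
Pck1 (chr2:173152823-173153072, plus strand): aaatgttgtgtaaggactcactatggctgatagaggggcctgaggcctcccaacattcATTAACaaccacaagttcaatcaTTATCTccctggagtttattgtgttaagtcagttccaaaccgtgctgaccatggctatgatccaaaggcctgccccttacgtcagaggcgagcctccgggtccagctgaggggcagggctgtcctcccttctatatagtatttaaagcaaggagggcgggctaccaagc
The first 3 were printed because they are the members with an HNF4 match, and the others because they are the best known saccharidase genes and the gene with the smallest adjusted p for diet. No motif was in all 6. In Alpi the HNF4 match lies 19 bases before the start, in Slc3a1 39 and in Treh 71 (distance of its first base).

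RefSeq promoters were found for 33 of the 38 genes, 43 in all, since some genes have several starts and their windows can overlap. The HNF4 letters occurred in 6.98% of the 43 promoters and in 0.384% of all 32851 mouse promoters of the same length. The HNF1 half-site was in 18.6% against 6.43%, and AGATAA in 20.9% against 9.99%. CDX letters were in 16.3% against 11.2% and TATAAA in 16.3% against 12.4%. These shares count promoters, and overlapping Slc7a7 windows hold the same CDX and GATA matches. Counted by gene, 3 of the 33 held the HNF4 letters, 8 the HNF1 half-site, 8 AGATAA, 6 CDX letters and 7 TATAAA. A match describes letters only, and no binding was measured here.

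Among the saccharidases, the enzymes that split dietary disaccharides and glucose chains, the lactase gene Lct (ENSMUSG00000026354; chromosome 1, 128284756 to 128328318 on mm10, GENCODE vM21) had 654, 74.3 and 43.5 CPM in ND non-EEC replicates 1 to 3 and 817, 3678 and 2609 CPM in the HFD non-EEC. Sis (chromosome 3, 72888557 to 72967863) had 3515, 705 and 373 CPM under ND and 4678, 10216 and 7047 CPM under HFD, and the trehalase gene Treh (chromosome 9, 44673233 to 44686305) 64.1, 8.48 and 5.89 and 85.3, 456 and 285 CPM. In all 3 genes the HFD libraries lay above the ND libraries, and ND replicate 1 was the highest ND library. Their log2 fold changes were 3.20 ± 1.01 for Lct (SE; adjusted p = 0.0491, edgeR), 2.26 ± 0.71 for Sis (adjusted p = 0.0495) and 3.40 ± 1.02 for Treh (adjusted p = 0.0409). The maltase-glucoamylase gene Mgam had 2675, 672 and 312 CPM under ND and 2373, 6282 and 4517 CPM under HFD, groups that overlapped through ND replicate 1, and was not called (adjusted p = 0.128).

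Peptidases of the brush border cut peptides to absorbable pieces. The genes of both meprin subunits, a metalloprotease, were among those that rose. Mep1a had 35.4, 9.96 and 4.98 CPM in ND non-EEC and 54.3, 241 and 145 CPM in HFD non-EEC, and Mep1b 287, 51.5 and 37.7 and 546, 1105 and 969 CPM. Ggt1, which encodes the gamma-glutamyl transferase that breaks down glutathione, had 117, 12.8 and 17.9 and 144, 696 and 611 CPM. HFD libraries of these 3 genes did not overlap the ND libraries, and HFD replicate 1 was the lowest of its group. The log2 fold changes were 3.13 ± 0.72 for Mep1a (adjusted p = 0.0137, edgeR), 2.80 ± 0.78 for Mep1b (adjusted p = 0.0311) and 3.29 ± 0.89 for Ggt1 (adjusted p = 0.0271).

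Alpi, the intestinal alkaline phosphatase gene (chromosome 1, 87098002 to 87101606), had 483, 68.04 and 32.5 CPM under ND and 806, 2939.8 and 1442 CPM under HFD. Naaladl1, which encodes a membrane peptidase, had 269, 78.002 and 29.2 and 377, 1831 and 709 CPM, and Xpnpep2, the gene of membrane-bound aminopeptidase P, 70.02, 12.4 and 6.18 and 60.6, 233 and 205 CPM. Alpi and Naaladl1 showed no overlap between diets, while the highest ND library of Xpnpep2 lay above its lowest HFD library. Log2 fold changes were 3.15 ± 0.97 for Alpi (adjusted p = 0.0444, edgeR), 2.96 ± 0.81 for Naaladl1 (adjusted p = 0.029) and 2.50 ± 0.75 for Xpnpep2 (adjusted p = 0.0405). Anpep, Enpep (aminopeptidase A) and Dpep1 (a membrane dipeptidase) did not overlap between diets either and had log2 fold changes of 2.0998 ± 0.88, 2.43 ± 0.81 and 2.59 ± 0.86, with adjusted p-values of 0.125, 0.0609 and 0.0585.

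Among the amino acid carriers, Slc6a19, the gene of the main luminal carrier of neutral amino acids (chromosome 13, 73679745 to 73704865), had 142, 18.02 and 14.8 CPM in ND non-EEC and 179.9, 812 and 484 CPM in HFD non-EEC. The proline carrier gene Slc6a20a had 61.1, 23.9 and 8.52 and 134, 412 and 347 CPM. Slc3a1, the heavy subunit gene of the carrier of cystine and basic amino acids, had 79.3, 17.4 and 6.81 and 115, 222 and 179 CPM. In each of these 3 genes the lowest HFD library was above the highest ND library, which was replicate 1. They rose by log2 fold changes of 3.08 ± 0.80 (adjusted p = 0.0238, edgeR), 3.26 ± 0.83 (adjusted p = 0.0217) and 2.32 ± 0.66 (adjusted p = 0.033).

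The di- and tripeptide carrier gene Slc15a1 had 165, 24.8 and 23.5 CPM under ND and 109.9, 699.9 and 384 CPM under HFD, overlapped between diets and narrowly missed the call (log2 fold change 2.48 ± 0.79, adjusted p = 0.0504, edgeR). So did the basolateral carrier gene Slc7a7, at 2.33 ± 0.74 (adjusted p = 0.0501), whose libraries did not overlap. The remaining carriers of the group, Slc7a8, Slc7a9, Slc3a2, Slc1a1 and Slc36a1, had log2 fold changes from 0.72 (Slc36a1, the proton-coupled carrier of small amino acids) to 2.02 (Slc7a9, the light subunit paired with Slc3a1), with adjusted p-values from 0.0575 to 0.31.

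The fructose carrier gene Slc2a5 (chromosome 4, 150119283 to 150144169) had 41.2, 5.93 and 4.35 CPM in ND non-EEC and 63.95, 170.3 and 138 CPM in HFD non-EEC. Slc5a9, which encodes a sodium-coupled carrier of mannose and related sugars, had 24.3, 5.44 and 3.37 and 32.9, 145 and 73.4 CPM. Both were higher in every HFD library than in any ND library, with log2 fold changes of 2.85 ± 0.73 (adjusted p = 0.021, edgeR) and 2.93 ± 0.74 (adjusted p = 0.0205). The inositol carrier gene Slc5a11 overlapped between diets and had a log2 fold change of 2.34 ± 0.95 (adjusted p = 0.111).

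Of the enzymes that handle absorbed sugar, Pck1 (ENSMUSG00000027513; chromosome 2, 173153048 to 173159273), the gene of cytosolic phosphoenolpyruvate carboxykinase, had the smallest adjusted p of the 38 genes. It stood at 71.8, 17.9 and 23.05 CPM in ND non-EEC and at 190.2, 628 and 643 CPM in HFD non-EEC. G6pc, the gene of glucose 6-phosphatase, had 24.6, 2.76 and 3.20 and 53.5, 63.2 and 113 CPM, and Fbp1, the gene of fructose-bisphosphatase, 14.9, 6.43 and 6.35 and 19.9, 28.6 and 56.96 CPM. These 3 enzymes belong to gluconeogenesis, and all HFD libraries exceeded all ND libraries for each. Log2 fold changes were 3.70 ± 0.76 for Pck1 (adjusted p = 0.00826, edgeR), 2.91 ± 0.90 for G6pc (adjusted p = 0.0457) and 1.93 ± 0.61 for Fbp1 (adjusted p = 0.0483). Khk, the gene of ketohexokinase, the first enzyme of fructose breakdown, did not overlap either, at 213, 46.8 and 60.4 and 255, 358 and 449 CPM, but was not called (1.73 ± 0.65, adjusted p = 0.088).

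Microvillus genes had the smallest median of the 6 roles, 1.73 on the log2 scale. The tip cadherin gene Cdhr2 had 359.9, 61.7 and 34.5 CPM in ND non-EEC and 269, 1458 and 792 CPM in HFD non-EEC. Eps8, whose protein caps and bundles actin at the tip, had 194, 49.4 and 31.3 and 268, 551 and 286 CPM, and Ush1c, the gene of the scaffold harmonin, 73.4, 25.5 and 19.2 and 65.4, 143 and 122 CPM. Only Eps8 of these 3 showed no overlap; in Cdhr2 and Ush1c, ND replicate 1 lay above HFD replicate 1. The fitted log2 fold changes were 2.47 ± 0.78 (adjusted p = 0.0487, edgeR), 2.01 ± 0.59 (adjusted p = 0.038) and 1.48 ± 0.46 (adjusted p = 0.0461). Villin (Vil1), Cdhr5, Myo1a, Myo7b and Espn were not called, with log2 fold changes from 1.43 to 2.12 and adjusted p-values from 0.0653 to 0.207.

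**Figure D3:**
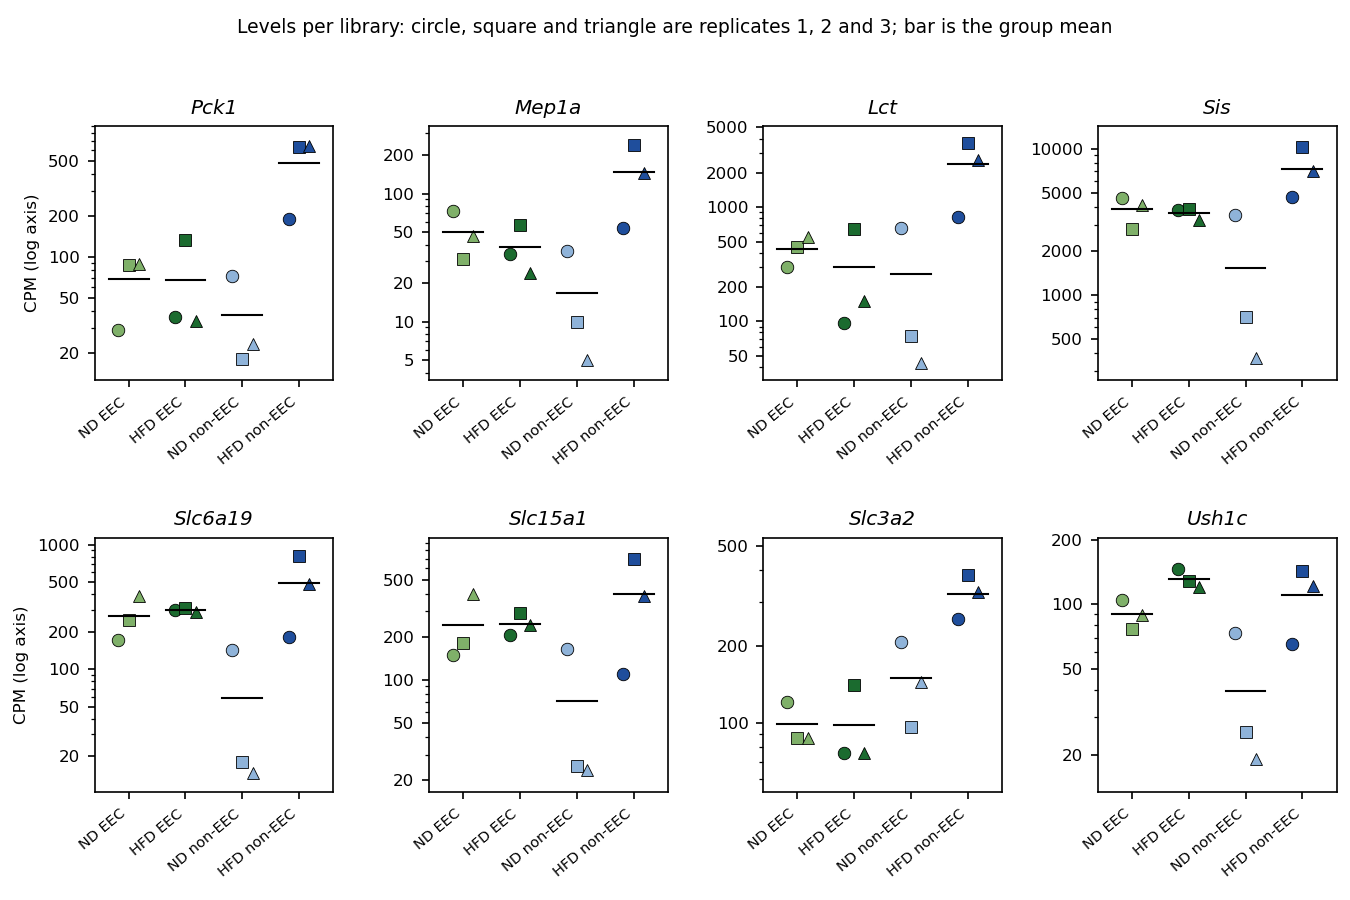
CPM (log axis) of 8 brush border genes in each of the 12 libraries, with circle, square and triangle for replicates 1, 2 and 3 and a bar at the group mean. For Pck1 the HFD non-EEC libraries (190.2, 628 and 643 CPM) lie above all others, while for Slc6a19, Slc15a1 and Ush1c the EEC libraries of both diets lie within or near the range of HFD non-EEC.

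The count of 20 depended on single libraries. Calls over all tested genes moved as well in these runs, with ranges given under processing below, and the counts here are of the 38 genes. Of the non-EEC libraries, leaving out ND replicate 1 gave 36 calls, ND replicate 2 gave 1, ND replicate 3 gave 2, HFD replicate 2 gave 1 and HFD replicate 3 gave 3. The EEC libraries enter this comparison only through the filter on low counts, the scaling and the shared estimate of spread. Of them, leaving out HFD replicate 3 gave 10, and ND replicate 2 or HFD replicate 1 gave 13. The median was 3.95 without ND non-EEC replicate 1. With that replicate as the sole ND non-EEC library, 0 genes were called, the median was 1.14 and all 38 stayed positive. DESeq2 called 33 (9.99% of the genes it tested), including all 20. Of the 12 runs that each left out 1 library, Pck1 was called in 12, Mep1a in 10, Slc5a9 in 9 and Sis in 1.

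The diet comparison within EEC asked for the effect of the high fat diet on the hormone cells themselves. For the brush border genes it gave no call: 0 of 38 passed edgeR's quasi-likelihood test (0.0% of all tested genes did), 0 of 38 had an unadjusted p below 0.05, and DESeq2 called 0 of 38 (9.44% of all tested genes had such a p, and DESeq2 called 2.65%). The median log2 fold change was -0.02 (all genes 0.00), with 17 genes positive and 21 negative. Without HFD EEC replicate 2 it was -0.45, with 9 positive and 29 negative, and without HFD EEC replicate 1 or 3 it was 0.15 and 0.14, with 23 positive in both runs. It was -0.11 without ND EEC replicate 2 and 0.01 without ND EEC replicate 3. The range was from -1.23 ± 0.86 for G6pc to 0.86 ± 0.77 for Espn. Standard errors ran from 0.36 (Slc3a2) to 0.93 (Treh) on the log2 scale, so these values do not show that the levels were equal.

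In EEC, Pck1 stood at 29.2, 87.3 and 88.8 CPM under ND and 36.6, 132 and 34.1 CPM under HFD, and Lct at 298, 452 and 551 and 96.6, 644 and 151 CPM. Sis had 4618, 2845 and 4151 and 3813, 3887 and 3234 CPM, and Slc6a19 170.4, 248 and 388 and 301, 309 and 286 CPM. Diets overlapped in all 4 genes, and HFD EEC replicate 2 was the highest HFD library in each. Libraries did not overlap for Slc3a1, at 55.8, 50.6 and 41.6 CPM under ND and 83.4, 105 and 74.9 CPM under HFD, for Ush1c, at 105, 76.5 and 89.3 and 146, 128 and 120.4 CPM, and for Espn, at 9.85, 15.7 and 19.6 and 36.3, 25.6 and 20.3 CPM. Slc36a1 was the other such gene, in the opposite direction, with 274, 260.1 and 293 and 177, 208 and 235 CPM. That makes 3 of 38 higher and 1 of 38 lower without overlap, against 8.37% and 6.59% of all tested genes. HFD EEC replicate 2 had a geometric mean over the 38 genes of 199.7 CPM, where HFD EEC replicates 1 and 3 had 81.3 and 88.2 CPM, and an enterocyte marker sum of 20149 CPM against 7209 and 10148 CPM. Between diets in EEC the 8 enterocyte markers had a median log2 fold change of 0.65, with 0 called. T cell markers had a median of -4.31, also with 0 of 8 called. Their sums were 1221, 1179 and 184 CPM in ND EEC and 14.8, 36.2 and 70.3 CPM in HFD EEC. The part of either set of markers in these levels was not tested.

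Genes that rose in non-EEC overlapped between diets in EEC, with the exception of Slc3a1 and Ush1c. Treh had 22.99, 61.8 and 56.4 CPM in ND EEC and 12.4, 105 and 19.95 CPM in HFD EEC, Mep1a 72.8, 30.9 and 46.2 and 33.6, 57.004 and 24.1 CPM, and Mep1b 188, 169 and 271 and 50.3, 279.8 and 84.3 CPM. Alpi had 221, 231 and 189.6 and 124, 743 and 134 CPM, Ggt1 76.2, 77.2 and 85.7 and 23.5, 136 and 46.96 CPM, and Naaladl1 127, 208 and 194 and 151, 489 and 141 CPM. In these 6 enzyme genes HFD EEC replicate 2 was above all 3 ND EEC libraries except for Mep1a. Xpnpep2 had 82.7, 91.6 and 137 and 139.8, 112 and 86.9 CPM, with HFD EEC replicate 1 the highest.

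Among carrier genes of EEC, Slc6a20a had 39.7, 47.3 and 34.3 CPM under ND and 11.8, 113 and 24.98 CPM under HFD, Slc2a5 39.9, 34.2 and 58.5 and 37.5, 45.01 and 26.2 CPM, and Slc5a9 44.2, 35.7 and 39.996 and 20.6, 69.9 and 55.4 CPM. Of the gluconeogenic genes, G6pc had 2.63, 13.6 and 30.7 and 4.36, 9.31 and 6.45 CPM and Fbp1 1.97, 6.05 and 10.96 and 9.67, 13.4 and 9.68 CPM, both lowest in ND EEC replicate 1. Of the microvillus genes, Cdhr2 had 339, 331 and 375 and 431, 509 and 285 CPM and Eps8 200.5, 119.6 and 108 and 158, 226 and 147 CPM, with HFD EEC replicate 2 the highest library of both.

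The comparison of EEC with non-EEC asked how far the sorted hormone cells carry transcripts of the absorptive brush border. Under HFD, 37 of the 38 genes had a lower fitted mean in EEC, with a median log2 fold change of -1.84 (all genes 0.00). Of the 38, 7 were called lower in EEC and 0 higher (edgeR's quasi-likelihood test), against 3.77% of all tested genes called lower and 10.2% called higher. They were Pck1, G6pc and Khk of sugar metabolism, the peptidase genes Enpep, Mep1b and Ggt1, and Slc3a2. In 24 of 38 genes every EEC library lay below every non-EEC library, against 14.9% of all tested genes. Enterocyte markers outside the 38 genes were called lower in EEC for 3 of 8 in the same comparison, with sums of 7209, 20149 and 10148 CPM in HFD EEC. T cell markers were called lower for 2 of 8, with sums of 14.8, 36.2 and 70.3 CPM in HFD EEC, where Cd2 had no counts in replicate 1. The part of these markers in the difference was not tested.

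G6pc (chromosome 11, 101367561 to 101377903) had 4.36, 9.31 and 6.45 CPM in HFD EEC and 53.5, 63.2 and 113 CPM in HFD non-EEC, a log2 fold change of -3.51 ± 0.93 (adjusted p = 0.0237, edgeR). Pck1, with 36.6, 132 and 34.1 CPM in EEC, differed by -2.85 ± 0.73 (adjusted p = 0.0207). Khk had 35.7, 135 and 41.6 CPM in EEC against 255, 358 and 449 CPM and differed by -2.32 ± 0.66 (adjusted p = 0.0326). Every EEC library was below every non-EEC library for these 3 genes, and the same held without a call for Fbp1 (-1.68 ± 0.60, adjusted p = 0.0809).

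Enpep had 87.6, 494 and 107 CPM in HFD EEC and 1073, 1892 and 1535 CPM in HFD non-EEC, with a log2 fold change of -2.71 ± 0.82 (adjusted p = 0.0434, edgeR). Mep1b had 50.3, 279.8 and 84.3 CPM in EEC and differed by -2.66 ± 0.78 (adjusted p = 0.0369), and Ggt1 23.5, 136 and 46.96 CPM and -2.81 ± 0.87 (adjusted p = 0.0466). HFD EEC replicate 2 was the highest EEC library for all 3 peptidase genes and still lay below the lowest non-EEC library. Under ND, Enpep had 216, 217 and 291 CPM in EEC and 646, 127 and 63.2 CPM in non-EEC, and Khk 188, 76.8 and 80.95 CPM in EEC, all within the range of their ND non-EEC libraries. The proline carrier gene Slc6a20a, at 11.8, 113 and 24.98 CPM in HFD EEC, came nearest without a call (-2.58 ± 0.81, adjusted p = 0.0502).

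Slc3a2 (ENSMUSG00000010095; chromosome 19, 8706882 to 8723369) encodes the heavy chain shared by several basolateral amino acid carriers, which lymphocytes and other cells also express. It had 76.1, 141 and 75.99 CPM in HFD EEC and 257, 384 and 327 CPM in HFD non-EEC, with a log2 fold change of -1.72 ± 0.37 (adjusted p = 0.00804, edgeR). Under ND it had 121, 86.8 and 87.04 CPM in EEC and 208, 96.5 and 145 CPM in non-EEC, which overlapped. Over both diets it was the 1 gene of 38 called, lower in EEC by -1.17 ± 0.26 (adjusted p = 0.00598), where 7.8% of all tested genes were called lower and 13.8% higher. That call held in all 12 runs that left out 1 library and in the 5 other alternatives.

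Of the roles among the 38 genes, the microvillus genes were closest to non-EEC under HFD. They had a median log2 fold change of -1.05, with 0 of 8 called by edgeR. At an unadjusted p below 0.05, 1 of 8 was lower, against 11.9% of all tested genes, and DESeq2 called 1. This did not extend to 10 further microvillus genes from the comparison list described below. Their median was -1.68, with 3 of 10 called lower by edgeR. At an unadjusted p below 0.05, 8 of these 10 were lower, and DESeq2 called 5 lower. Ush1c was the 1 gene of 38 with a higher fitted mean in EEC, at 146, 128 and 120.4 CPM against 65.4, 143 and 122 CPM (0.26 ± 0.45, adjusted p = 0.779). Medians were -2.50 for saccharidases, -2.37 for peptidases and phosphatases, -1.59 for amino acid and peptide carriers, -1.77 for sugar carriers and -2.59 for sugar metabolism. Of the saccharidases 0 of 4 were called (3 of 4 at an unadjusted p below 0.05, and DESeq2 called 3), although Lct, Mgam and Sis did not overlap between populations.

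The 7 calls under HFD also rested on single libraries. Leaving out replicate 1, 2 or 3 of HFD EEC gave 0, 17 and 1 calls, and leaving out replicate 2 or 3 of HFD non-EEC gave 2 and 1. Replicates 1 and 3 of ND non-EEC enter only through the filter on low counts, the scaling and the estimate of spread. When either was left out, 22 and 16 genes were called. DESeq2 called 23 (7.97% of the genes it tested), including the 7.

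**Figure D4:**
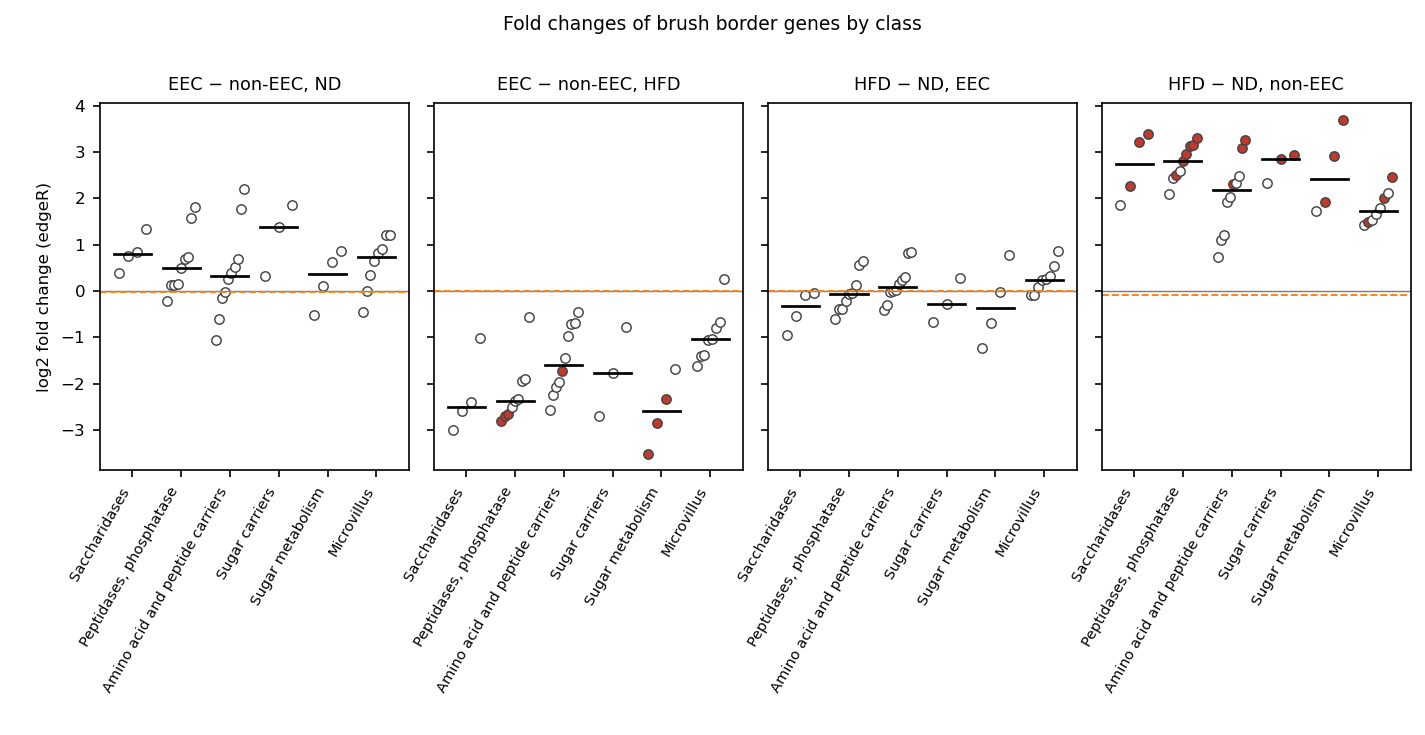
Log2 fold change from edgeR of each brush border gene (points) by role in 4 comparisons, with black bars at the median of each role, the dashed line at the median of all tested genes and filled red points for genes called at an adjusted p below 0.05. In non-EEC the points for HFD against ND all lie above 0 (median 2.33), whereas in EEC they lie on both sides of it (median -0.02).

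Under ND no difference between the populations was called among the 38 genes. The median log2 fold change was 0.57, with 30 genes positive and 8 negative, and 0 of 38 were called by edgeR (of all tested genes 7.91% were called higher and 4.9% lower), with 6 higher in EEC at an unadjusted p below 0.05 (15.2% of all tested genes) and 2 called higher by DESeq2 (10.5% of the genes it tested). Slc6a19 had 170.4, 248 and 388 CPM in ND EEC against 142, 18.02 and 14.8 CPM in ND non-EEC (log2 fold change 2.20 ± 0.78, adjusted p = 0.0786). Slc5a9 had 44.2, 35.7 and 39.996 CPM against 24.3, 5.44 and 3.37 CPM (1.86 ± 0.71, adjusted p = 0.102). These were 2 of the 5 genes whose EEC libraries all lay above the non-EEC libraries, with Xpnpep2, Slc36a1 and Ush1c, against 15.7% of all tested genes. Calls over all tested genes moved when libraries were left out, with ranges given under processing below. The size of the difference between the populations depended on ND non-EEC replicate 1. Without it 19 genes were called higher in EEC and the median was 1.99, and with it as the sole ND non-EEC library the median was -0.58, 9 genes were positive and 0 were called. Leaving out replicate 2 or 3 of that group gave a median of 0.28 or 0.17.

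In the same comparison 6 of 8 T cell markers were called lower in EEC, with a median of -3.02 and sums of 1221, 1179 and 184 CPM in ND EEC. Of the 8 enterocyte markers 0 were called, with a median of 0.53 and sums of 10293, 7412 and 12527 CPM in ND EEC. The part of these markers in the ND values was not tested.

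Over both diets the median was -0.93, with 9 genes positive and 29 negative. It was -0.10, with 17 positive, when replicate 1 of ND non-EEC was left out, and -1.43, with 14 genes called lower, with that replicate as the sole ND non-EEC library. T cell markers were called lower in EEC for 7 of 8 in this comparison, and their part in it was not tested. The comparison called 5 genes higher and 1 lower when replicate 1 of ND non-EEC was left out. It called 5 lower when replicate 3 of that group was left out, 6 lower for replicate 2 of HFD EEC and 2 lower for replicate 3 of ND EEC.

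The difference of the diet effects asked whether HFD acted differently in EEC and non-EEC. All 38 genes had a negative value, that is a smaller diet effect in EEC, with a median of -2.41 on the log2 scale against 0.11 over all tested genes. After adjustment 0 of 38 passed edgeR's quasi-likelihood test, where 0.451% of all tested genes were called positive and 0.0468% negative, while 23 of 38 were negative at an unadjusted p below 0.05 (7.4% of all tested genes) and DESeq2 called 7 negative (2.56% of the genes it tested). The smallest adjusted p-values belonged to Pck1 (-3.72 ± 0.998, adjusted p = 0.105), Mep1a (-3.52 ± 0.97, adjusted p = 0.111), G6pc (-4.14 ± 1.24, adjusted p = 0.135) and Slc2a5 (-3.14 ± 0.98, adjusted p = 0.145). Without ND non-EEC replicate 1 the median was -3.86 and 34 of 38 were called. With that replicate as the sole ND non-EEC library the median was -1.22, 2 genes were positive and 0 were called. In 3 other runs, without ND EEC replicate 1, HFD EEC replicate 3 or HFD non-EEC replicate 1, 1 gene was positive. This value, the non-EEC diet effect and the population differences share libraries, so they are not independent of each other. Enterocyte markers outside the 38 genes were shifted too: their median difference of diet effects was -2.66 (8 genes, 0 called by edgeR). For the T cell markers it was 0.49 (8 genes, 0 called). How far either set of markers contributed to the negative values of the 38 genes was not tested.

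Because the level of the whole set differed between libraries, each gene was also set against the other 37 in the same library, as log2(CPM + 1) minus their mean. This measure was added after the values had been seen and is given without a test. For 5 of 38 genes all 6 EEC libraries lay above all 6 non-EEC libraries, against 2.63% of all tested genes set against the same mean, and for 0 of 38 they all lay below (0.0702%). All tested genes take on every move of that mean between libraries, while the 38 are centred on it. The shares are therefore no expected rate for the 38. The 5 were the carrier genes Slc6a19, Slc15a1 and Slc5a9, the peptidase gene Xpnpep2 and the cadherin gene Cdhr2. Slc6a19 stood at 0.54, 1.09 and 1.53 in EEC under ND and 1.93, 0.64 and 1.73 under HFD, against -0.41, -1.12 and -0.82 in non-EEC under ND and -0.37, 0.44 and 0.13 under HFD. Slc15a1 stood at 0.34, 0.62 and 1.56 and 1.35, 0.56 and 1.48 in EEC, against -0.19, -0.66 and -0.16 and -1.09, 0.22 and -0.22 in non-EEC. The mean differences were 1.60 for Slc6a19, 1.43 for Xpnpep2, 1.34 for Slc15a1, 1.14 for Slc5a9 and 0.95 for Cdhr2, all on the log2 scale.

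**Figure D5:**
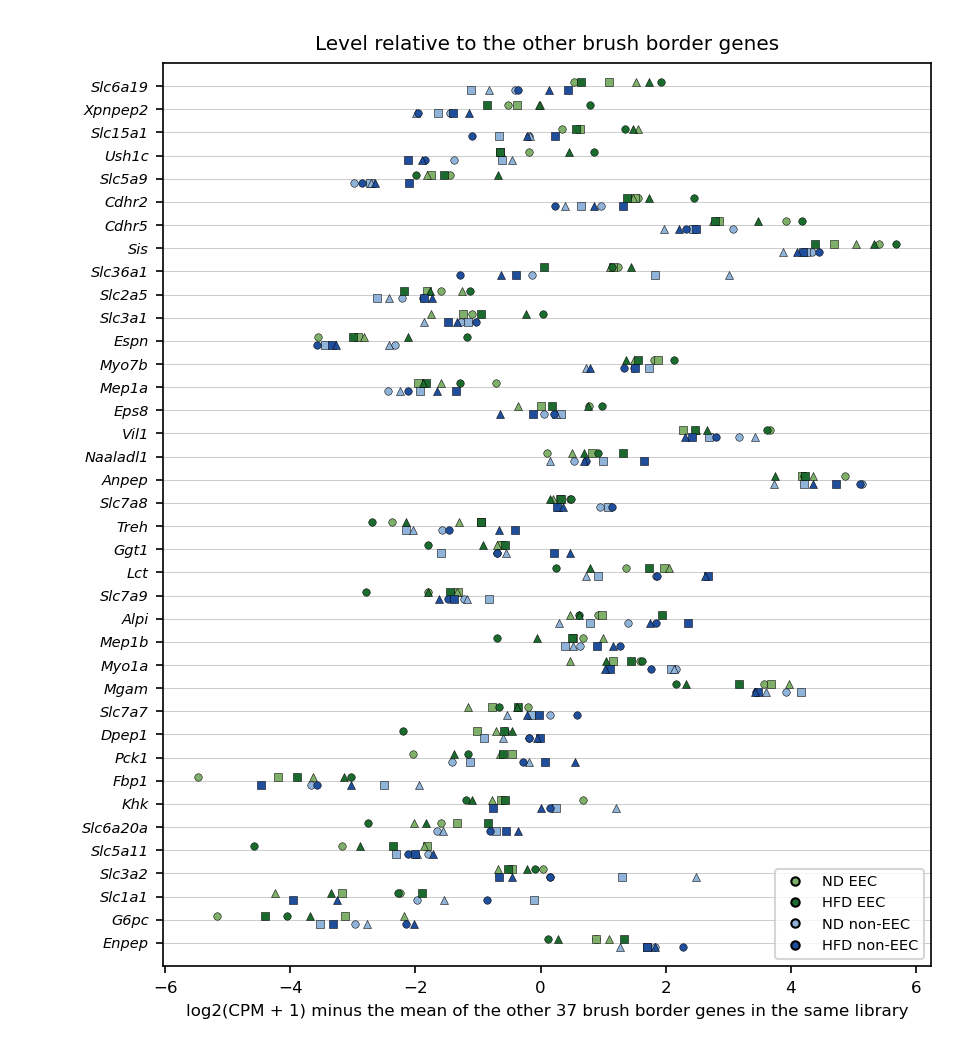
Level of each gene relative to the other 37 brush border genes of the same library, in log2(CPM + 1), with 1 point per library and EEC and non-EEC in different colours. The EEC points of Slc6a19, Xpnpep2, Slc15a1, Slc5a9 and Cdhr2 all lie to the right of the non-EEC points.

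Under HFD the makeup of the brush border set was also compared between the populations. On this relative scale 10 of 38 genes were higher in every HFD EEC library than in any HFD non-EEC library (59.2% of all tested genes), and 11 of 38 were lower (0.632%). Both shares of all tested genes follow from the lower mean of the 38 in EEC. They are no expected rate for the 38, which are centred on that mean. Microvillus genes had a median difference of 0.94, and none of the 8 was among those lower. Saccharidases had a median of -0.99, peptidases and phosphatases -0.92 and sugar-metabolism genes -0.96. Within the saccharidases Sis went the other way from the rest: it stood at 5.68, 4.39 and 5.32 in HFD EEC and 4.45, 4.20 and 4.09 in HFD non-EEC, a difference of 0.89, while Lct stood at 0.25, 1.73 and 0.79 and 1.87, 2.68 and 2.62, a difference of -1.46. Ush1c had the largest positive difference, 2.18, and G6pc the largest negative, -1.54.

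In non-EEC the diets were compared on the same scale. Relative to the other 37 genes, 6 of 38 were higher in every HFD library than in any ND library (0.234% of all tested genes) and 6 of 38 were lower (65.6%). Both shares of all tested genes follow from the rise of the mean of the 38 under HFD. They are no expected rate for the 38, which are centred on that mean. Lct (1.23), Alpi (1.15), Treh (1.08), Slc6a19 (0.85), Mep1b (0.60) and Slc2a5 (0.59) were the higher ones, with the difference of means in brackets. Slc36a1 (-2.33), Ush1c (-1.14), Myo1a (-0.82), Khk (-0.75), Mgam (-0.45) and Slc7a9 (-0.42) were the lower ones.

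A further 30 genes of the same functions served as a comparison. They were listed by role, with earlier results of these data known. In non-EEC, 11 of the 30 rose under HFD and 1 fell (edgeR), with a median of 2.02. Of all tested genes 5.76% were called higher and 9.15% lower. Slc5a4b, of the sodium-coupled glucose carrier family, had 20.6, 4.95 and 3.77 CPM under ND and 50.1, 208 and 193 CPM under HFD (3.94 ± 0.69, adjusted p = 0.00408). The tip-complex genes Calml4 and Anks4b rose by 1.98 ± 0.41 (adjusted p = 0.00907) and 2.04 ± 0.46 (adjusted p = 0.0123). Slc7a6, a basolateral amino acid carrier gene, fell, with 12.5, 19.6 and 28.02 CPM under ND and 5.05, 1.90 and 4.21 CPM under HFD (-2.42 ± 0.51, adjusted p = 0.00909). Its levels were highest in the 2 libraries with the highest T cell marker sums, and the part of those cells in it was not tested.

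In EEC against non-EEC under HFD, 7 of the 30 were called lower and 1 higher, against 3.77% and 10.2% of all tested genes. The cytoskeletal linker gene Ezr and its partner Slc9a3r1 were lower by -1.62 ± 0.44 (adjusted p = 0.0278, edgeR) and -1.73 ± 0.47 (adjusted p = 0.0272). Mme, the gene of neprilysin, was lower by -2.82 ± 0.82 (adjusted p = 0.0352). Under ND 1 of the 30 was called, higher in EEC (7.91% of all tested genes were). It was Tmprss15 (enteropeptidase), which had no counts in the ND non-EEC libraries and 2.63, 1.82 and 2.48 CPM in ND EEC. These levels are near the floor, and the call held in 9 of 17 alternatives, 5 of them leave-out runs. Under HFD Tmprss15 had 0, 1.25 and 0 CPM in EEC and 0.18, 4.43 and 1.48 CPM in non-EEC. Over both diets Slc9a3r1 alone was called, lower in EEC (-1.14 ± 0.33, adjusted p = 0.0246, edgeR). Of all tested genes 7.8% were called lower there and 13.8% higher. In EEC 0 of the 30 were called between diets (1 at an unadjusted p below 0.05, and DESeq2 called 0). The shares over all tested genes were 0.0% called by edgeR and 9.44% with such a p, and DESeq2 called 2.65% of its genes.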

How the data were processed

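The authors deposited whole-number counts per gene, 1 column per library and 12 in all, with Ensembl gene identifiers. Reads were processed with CASAVA 1.8.2, TopHat2 2.0.10, Bowtie2 2.1.0 and HTSeq 0.5.4p3 on mm10, per the submitters' processing notes. Which annotation was counted, with what strand setting and overlap mode, is not given in the sources used here. Genes that overlap or have a close copy (Slc6a20a has Slc6a20b) therefore have uncertain counts. Per the labels' protocols, cDNA synthesis used the Ovation RNA-Seq V2 kit.

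From these counts, edgeR's filterByExpr kept 17087 of 39086 genes and libraries were scaled by TMM, with 9543183 to 29054281 counts each. A model of 4 group means over the 12 libraries was fitted and tested with edgeR's quasi-likelihood test (edgeR 4.0.16, R 4.3.3), with 8 residual degrees of freedom, and Benjamini-Hochberg adjustment covered all 17087 genes. A call is an adjusted p below 0.05. Each standard error is the absolute log2 fold change divided by the square root of the quasi-likelihood F statistic. CPM per kb used the union of exons of GENCODE vM21. Symbols were matched for 37607 identifiers (96.2%). No libraries held identical values. The fit was also run on simulated counts with known changes and no other difference between the groups compared. Those counts held no replicate that stood apart across many genes, so the run does not bear on the counts of calls here.

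The 38 genes, the lists and the comparisons were chosen with earlier results of these data known. Any of the 38 could be named, values per library are given for those called in any comparison, and up to 4 called genes per comparison were named of the 30 others. Alternatives were RLE factors, no filter on low counts, DESeq2 1.42.0, a block for the replicate number, and each library left out in turn. The block joined same-numbered libraries across diets for the diet comparisons, and within each diet for all others. Runs with ND non-EEC held by replicate 1 alone were added after the data were seen. Promoters came from RefSeq (GRCm38.p6).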

Additional observations from a re-analysis of the deposited data

How the results depend on the processing

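With all 38 genes as the base, the count called higher in non-EEC under HFD (20) was 33 with DESeq2, 12 with a replicate block, 0 with ND non-EEC held by replicate 1 alone and from 1 to 36 when 1 library was left out. The count lower in EEC under HFD (7) was 19 without a filter on low counts, 19 with the replicate block, 21 with replicate 1 alone, 23 with DESeq2 and from 0 to 22 in the leave-one-out runs. For EEC against non-EEC under ND (0) these were 2, 2 and 2 with no filter, the block and DESeq2, and from 0 to 19; over both diets (1) they were 2, 2, 14 with replicate 1 alone, 3 with DESeq2, and from 1 to 6. The difference of diet effects (0) gave 4 with no filter, 7 with DESeq2 and from 0 to 34, and the diet comparison in EEC (0) gave 0 throughout. Over all genes the calls were 2189 for ND (173 with replicate 1 alone, 3738 with DESeq2, leave-one-out 913 to 3043), 2393 for HFD (3742 with DESeq2, 1192 to 2974) and 3685 over both diets (2787 to 3964). They were 2549 for diet in non-EEC (111 with replicate 1 alone, 4082 with DESeq2, 1002 to 4203), 0 for diet in EEC (270 with no filter, 482 with DESeq2, 0 to 217) and 85 for the difference of diet effects (362 with no filter, 13 with replicate 1 alone, 1048 with DESeq2, 0 to 1270). The leave-out runs also held fewer libraries, and the cause of these moves was not tested.

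Of the 106 single-gene values followed through the alternatives (all 38 genes for diet in non-EEC and for EEC against non-EEC under HFD, and in the other comparisons the genes called, those with the smallest adjusted p and those printed), 2 changed sign, both uncalled differences under HFD: Slc36a1 ranged from -0.88 to 0.094 and Ush1c from -0.024 to 0.48 when 1 library was left out. Over all 38 genes the number with a positive value moved from 30 to between 9 and 35 for EEC against non-EEC under ND, from 9 to between 4 and 17 over both diets and from 17 to between 9 and 23 for diet in EEC. RLE factors moved no median of all genes by more than 0.05. The replicate numbers are not stated to mark shared mice: same-numbered EEC and non-EEC libraries correlated at 0.16, 0.27 and -0.01 in ND and at 0.32, 0.28 and 0.31 in HFD, and 4 of 6 ND and 6 of 6 HFD libraries correlated best with their own number, a hint from the data and not from the design. The block kept 6 of the 7 calls for EEC against non-EEC under HFD, where it joined same-numbered libraries within a diet. For diet in non-EEC it joined same-numbered libraries across diets and kept 11 of the 20 calls. A number shared across diets cannot mark a mouse, so that block has no basis in the design. Same-numbered non-EEC libraries correlated across diets at -0.14, -0.16 and 0.28.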

Other observations

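The principal glucose carriers of the villus are not among the 38 genes but belong to the further genes listed by role for comparison. They were singled out here for their known role, after their values had been seen. Slc5a1, the gene of the luminal sodium-coupled glucose carrier, had 1314, 172 and 141 CPM in ND non-EEC replicates 1 to 3 and 943, 2841 and 2219 CPM in HFD non-EEC, groups that overlapped (log2 fold change 1.88 ± 0.78, adjusted p = 0.118, edgeR). In EEC it had 867, 623 and 1046 CPM under ND and 257, 631 and 235 CPM under HFD (-1.18 ± 0.76, adjusted p = 0.714). Slc2a2, the gene of the basolateral glucose carrier, had 116, 85.8 and 153 CPM in ND EEC and 10.8, 52.3 and 15.7 CPM in HFD EEC, with every HFD library below every ND library. That difference was not called (-2.17 ± 0.88, adjusted p = 0.45). Under HFD, Slc2a2 was called lower in EEC than in non-EEC, where it had 88.5, 333 and 205 CPM (-2.99 ± 0.91, adjusted p = 0.0436). This call is already counted above among those of the comparison genes.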
